A study of Homo sapiens and Mus musculus with 54 samples.

Results

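The aryl hydrocarbon receptor (AhR) peaks described here were the peaks of the HepG2 AhR list that shared no base with any C/EBPα peak and none with any H3K27ac region of the same cells. They numbered 8574 of 56739 AhR peaks, or 15.1% (95% Wilson interval 14.8 to 15.4%), and are called neither-partner peaks. They were chosen by peak overlap alone, so their lack of both partners is the definition of the group and not a result. The other AhR peaks fell into 8067 with a C/EBPα peak only, 16764 with an H3K27ac region only and 23334 with both.

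HepG2 is a human liver cancer cell line. In this chromatin immunoprecipitation and sequencing (ChIP-seq) study it was kept in control medium (Cont) or without vitamin B2 (B2-minus, riboflavin deficiency) to Day 12. AhR was profiled in 2 Cont and 2 B2-minus libraries, C/EBPα in 2 and 2, and H3K27ac in 5 and 5. A further H3K27ac experiment had 2 Cont libraries with DMSO, 2 B2-minus libraries with DMSO and 2 B2-minus libraries with an AhR inhibitor (AhRinh). Of the 6 HepG2 input libraries, 2 are shared between AhR and C/EBPα in B2-minus cells. One cell line was used, and nothing in the labels says that the libraries came from separate cultures. Each deposited list joins peaks of several libraries and gives positions with no value per library, so Cont and B2-minus could not be compared and the depth behind a peak is unknown. The whole number that closes each peak name was taken as the count of peaks joined by HOMER, the peak caller, into that entry, and is called the merge number. The sources used here do not name the peak sets that were joined.

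AhR is a ligand-activated transcription factor of the bHLH-PAS family. In the cytoplasm it is held by a complex with HSP90 and p23, and after a ligand binds it enters the nucleus, pairs with ARNT and binds DNA at sites with the core GCGTG. Its classical targets are the xenobiotic-metabolising enzymes CYP1A1, CYP1A2 and CYP1B1, and its feedback inhibitors AHRR and TIPARP. C/EBPα is a leucine-zipper factor that maintains hepatocyte gene expression and binds sites of the type TTGCNNAA, and H3K27ac is a histone acetylation found at active enhancers and promoters.

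Sequence was read for promoters only, as RefSeq windows of GRCh38.p14 (the assembly of hg38) that run from 250 bases before to 50 bases after each listed gene start. Of the neither-partner peaks, 953 touched such a window and 830 covered at least 100 bases of one. The first 5 peaks are shown for the AhR core, from genes of different roles. Capitals mark GCGTG or its reverse complement CACGC, and each sequence is the stretch of the peak that lies before the gene start, 5′ to 3′ on the strand of the gene, here the minus strand in every case. RFK, the kinase that converts riboflavin to FMN, has its stretch at chr9:76394447-76394676. PTGES3, which encodes the p23 co-chaperone of the AhR complex, has it at chr12:56688285-56688384. NR1D1, the clock repressor REV-ERBα, has it at chr17:40100608-40100825. RELA, a subunit of NF-κB, has it at chr11:65662926-65663148, and NQO1, a quinone reductase with FAD as its cofactor, has it at chr16:69726561-69726655.
RFK: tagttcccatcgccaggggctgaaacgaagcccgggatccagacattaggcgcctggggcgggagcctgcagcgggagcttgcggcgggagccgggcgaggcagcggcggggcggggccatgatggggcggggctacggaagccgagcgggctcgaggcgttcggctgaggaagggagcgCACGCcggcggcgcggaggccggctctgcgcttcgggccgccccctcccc
PTGES3: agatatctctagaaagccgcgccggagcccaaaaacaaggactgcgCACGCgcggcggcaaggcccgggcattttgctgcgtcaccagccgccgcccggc
NR1D1: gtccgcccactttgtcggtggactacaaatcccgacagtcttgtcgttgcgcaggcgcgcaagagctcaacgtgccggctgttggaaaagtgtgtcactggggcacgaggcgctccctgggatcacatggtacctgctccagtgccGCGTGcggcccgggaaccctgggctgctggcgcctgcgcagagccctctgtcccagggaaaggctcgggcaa
RELA: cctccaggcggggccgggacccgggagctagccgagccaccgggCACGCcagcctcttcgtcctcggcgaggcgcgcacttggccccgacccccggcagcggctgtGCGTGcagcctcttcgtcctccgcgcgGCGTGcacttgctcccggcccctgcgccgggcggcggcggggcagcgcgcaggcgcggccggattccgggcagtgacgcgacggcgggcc
NQO1: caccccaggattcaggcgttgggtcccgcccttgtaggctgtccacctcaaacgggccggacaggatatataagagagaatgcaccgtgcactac
RELA held 3 cores in these bases, and RFK, PTGES3 and NR1D1 held 1 each. NQO1 held none in the 95 bases shown. RFK and NQO1 were shown by rule, and the others were picked after their values were seen.

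A second set is shown because of the word TCGCGAGA, which stood out in the promoters under these peaks. It is part of the palindromic element bound by the transcription factor BANP at CpG-rich promoters of housekeeping genes. Capitals mark TCGCGAGA and its reverse complement TCTCGCGA, with up to 25 bases on either side, and the genes were picked after their values were seen. SLC25A4 (the mitochondrial ADP/ATP carrier) is shown at chr4:185143191-185143248, RPS19 (a ribosomal protein) at chr19:41860162-41860219, COX7B (a subunit of cytochrome c oxidase) at chrX:77899393-77899450 and LAMP1 (a lysosomal membrane protein) at chr13:113297166-113297223, all on the plus strand. MICU2 (a regulator of the mitochondrial calcium uniporter) is shown at chr13:21604186-21604243 on the minus strand.
SLC25A4: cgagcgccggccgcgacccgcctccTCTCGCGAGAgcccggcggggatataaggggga
RPS19: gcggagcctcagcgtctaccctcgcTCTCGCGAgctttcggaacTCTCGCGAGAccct
COX7B: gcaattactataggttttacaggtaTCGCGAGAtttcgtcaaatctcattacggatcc
LAMP1: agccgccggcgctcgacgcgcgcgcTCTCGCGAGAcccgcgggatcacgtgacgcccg
MICU2: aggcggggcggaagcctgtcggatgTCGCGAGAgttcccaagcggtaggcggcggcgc
The 5 peaks over these promoters all had merge number 1.

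The neither-partner peaks spanned 200 to 708 bp (median 231, quartiles 214 and 254), against a median of 233 bp over all AhR peaks. Their median distance to the nearest partner peak was 3736.5 bp, with quartiles of 1206.25 and 10853 bp. Just inside the overlap limit, 156 of them had a partner's edge within 50 bp, 280 within 100 bp and 1867 within 1 kb. Just outside it, 144 AhR peaks shared at most 50 bp with every partner they touched. On chromosomes 1 to 22 and X their share of the AhR peaks had a median of 15.4%, was lowest on chromosome 16 and reached 20.1% on chromosome 19. Density per megabase was not computed.

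Whether a peak near a gene start could be joined to an H3K27ac region at all was limited by the H3K27ac list itself. Of its 102253 regions on the 22 chromosomes with listed starts (chromosome 8 was not used here), 1190 (1.16%) had their centre within 3 kb of a protein-coding gene start, while 7751 lay between 3 and 6 kb away. The drop was a step: in bins of 250 bp before the start, 317 regions lay between 3250 and 3000 bp and 49 between 3000 and 2750 bp. The H3K27ac list of the inhibitor experiment had the same gap, with a ratio of regions within 3 kb to those at 3 to 6 kb of 0.157, against 0.154 in the first list. The C/EBPα list had no such gap and a ratio of 2.06. The sources used here name no filter that would leave such a gap, and what made it was not tested. Within 3 kb of a start, lack of an H3K27ac region in the list therefore cannot be told apart from the gap, and it does not show that a promoter lacked the mark.

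**Figure D1:**
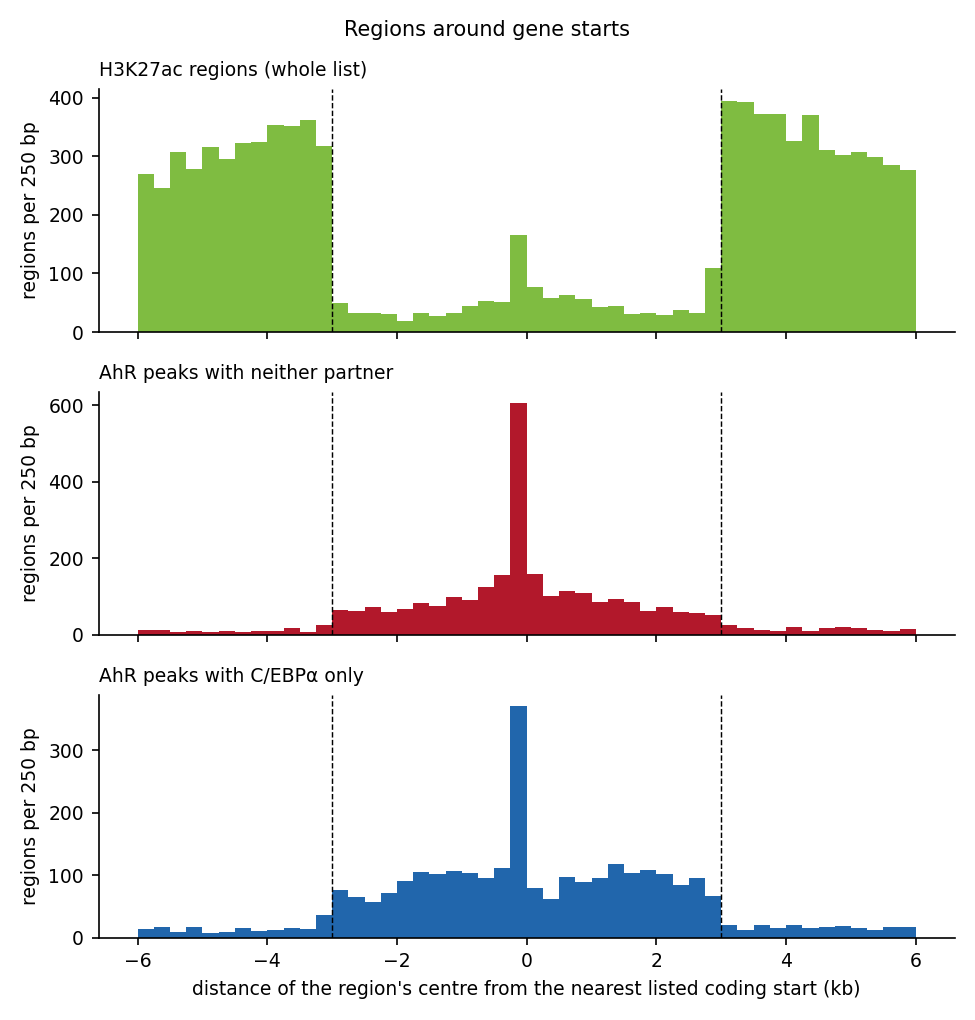
Number of regions per 250 bp (vertical axes) by distance of their centre from the nearest listed protein-coding start (horizontal axis, kb, negative before the start), for the whole H3K27ac list, the neither-partner AhR peaks and the AhR peaks with C/EBPα only. The dashed lines mark 3 kb on either side, where the H3K27ac list steps from 317 to 49 regions per bin and both AhR classes step up.

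The neither-partner peaks stepped at the same distances. Of the 8574, 2621 (30.6%) lay within 3 kb of a listed coding start, 599 (6.99%) lay within 3 kb of either end of a coding gene whose start is not listed, and 5354 (62.4%) were distal to both. Of all 5393 AhR peaks near a start, 94.3% (93.6 to 94.9%) touched no H3K27ac region and 48.6% (47.3 to 49.9%) were neither-partner peaks. Of the 49737 distal AhR peaks, 21.0% (20.6 to 21.4%) touched no H3K27ac region and 10.8% (10.5 to 11.0%) were neither-partner peaks. Once H3K27ac was absent, the split by C/EBPα was alike in both places: 51.5% (50.2 to 52.9%) of such AhR peaks had no C/EBPα peak near starts, and 51.3% (50.3 to 52.2%) had none at distal sites.

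The clearest comparison near starts is therefore with the AhR peaks that have C/EBPα only, since both classes lack an H3K27ac region. Within 1 kb of a coding start lay 1465 of 8184 neither-partner peaks, or 17.9% (17.1 to 18.7%), and 13.1% of the 7725 C/EBPα-only peaks. The neither-partner share was the higher on 22 of 22 chromosomes, and ran from 10.5% on chromosome 18 to 37.8% on chromosome 19. Within 3 kb of a start the shares were alike, at 32.0% of neither-partner and 31.9% of C/EBPα-only peaks. Within 250 bp of a start there were 764 neither-partner peaks (9.34%), and 605 of these (79.2%, 76.2 to 81.9%) were centred before the start. That share was 82.4% (78.6 to 85.6%) with C/EBPα only and 79.8% over all AhR peaks, so it was not particular to neither-partner peaks. In bins of 100 bp, 332 neither-partner peaks were centred in the last 100 bp before the start, 227 in the 100 bp before those and 110 in the first 100 bp of the gene. The share inside a protein-coding gene body, 56.1% (55.0 to 57.1%), was close to the 54.9% of all AhR peaks. Exons and introns were not separated.

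Few neither-partner peaks had been merged from more than 1 peak. Their merge number was 1 for 7432, 2 for 1140 and 3 for 2, so that 13.3% (12.6 to 14.1%) had a merge number of 2 or more. The same share was 33.1% with C/EBPα only, 31.6% with H3K27ac only and 63.8% with both. It was lowest in the neither-partner class on 23 of 23 chromosomes against each of the other 3 classes. Over chromosomes it ran from 7.41% (chromosome 6) to 21.6% (chromosome 22) in neither-partner peaks, below the 26.0 to 45.9% with C/EBPα only.

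The low merged share was present in both places. Distal neither-partner peaks were merged in 10.2% (9.40 to 11.0%), against 26.4% with C/EBPα only, 31.6% with H3K27ac only and 63.8% with both, again the lowest on 23 of 23 chromosomes. Near starts, 18.5% (17.0 to 20.0%) were merged, against 44.3% (42.3 to 46.2%) with C/EBPα only. When classes were made anew by edges within 1 kb, the neither-partner share was 12.9% and that with C/EBPα only 31.4%. Since the files give no peak height, weak peaks and peaks found in 1 library only cannot be separated from each other.

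**Figure D2:**
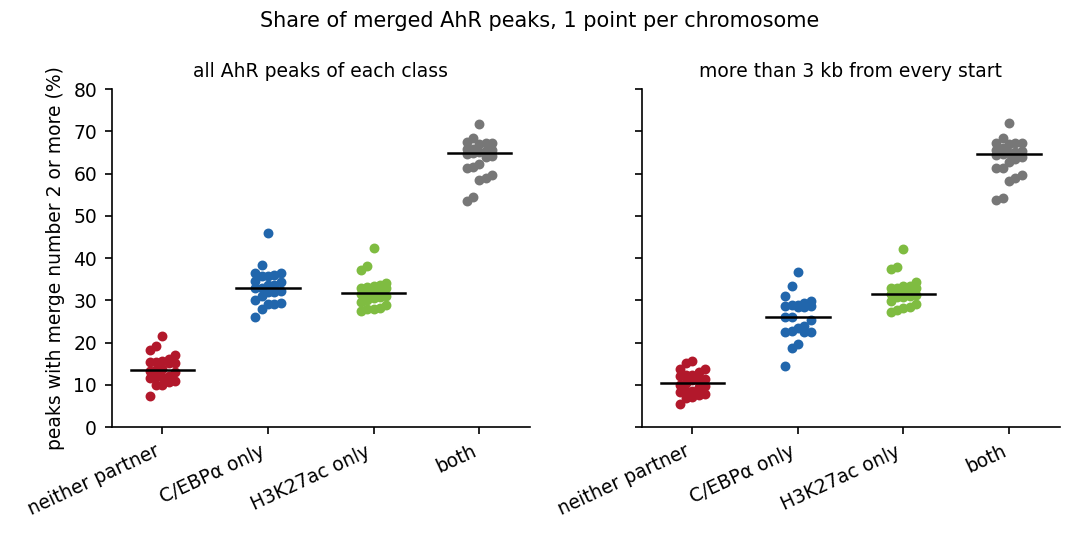
Share of AhR peaks with merge number 2 or more (vertical axis, %) by partner class, with 1 point for each of the 23 chromosomes and a line at their median; left, all peaks, and right, peaks more than 3 kb from every listed coding start and from both ends of coding genes without one. The neither-partner points lie between 7.41 and 21.6% on the left and between 5.39 and 15.6% on the right.

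The 2 peaks with merge number 3 lay in TNS3, a tensin of focal adhesions, at chr7:47474278-47474986, and in PRKAB1, a subunit of the AMP-activated kinase, within 3 kb of a listed start, at chr12:119670057-119670596. The TNS3 peak was also the widest, at 708 bp, and lay 219 bp from a C/EBPα peak and 243 bp from an H3K27ac region. The next widest were in KCNQ1, a potassium channel gene, at 636 bp and 658 bp outside the body of APOA1, the main apolipoprotein of HDL, at 626 bp.

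The promoters under neither-partner peaks were rich in GC and in CpG. Over their 830 windows of 300 bp the median GC content was 65.3% (quartiles 58.1 and 72.3%), the median number of CpG 25 and the median ratio of observed to expected CpG 0.822. Over all 34935 distinct windows the medians were 58.7%, 14 and 0.577. The 516 windows under C/EBPα-only peaks lay below these, at 55.7%, 9 and 0.413.

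The AhR core was found in more of these promoters than in promoters at large. GCGTG, searched on both strands, was present in 57.5% (54.1 to 60.8%) of the neither-partner windows, in 36.5% (36.0 to 37.0%) of all windows and in 36.2% (32.2 to 40.5%) of the C/EBPα-only windows. The longer form TNGCGTG, which contains the core, was present in 14.7%, 5.50% and 7.36%. Words made of the same letters in another order were also more frequent: GTGCG was present in 52.0% of neither-partner windows and 33.5% of all, and CGTGG in 49.8% and 38.1%. Matches of these words that overlap the core were kept in such window shares, so they are not independent of the core. The C/EBP word TTGCNNAA was present in 6.39% (4.91 to 8.26%) of neither-partner windows, 10.5% of all and 24.0% (20.5 to 27.9%) of C/EBPα-only windows. The E-box CACGTG was present in 14.2% against 7.23% of all windows, and a CTCF word in 15.1% against 10.0%. With C/EBPα only these were 8.53% and 8.72%, and both were lower in every other AhR class. The NRF2 word TGACNNNGC was present in 18.3% against 13.3% of all windows. The other classes were alike, at 16.9% with C/EBPα only, 16.1% with H3K27ac only and 20.3% with both. The AP-1 word TGANTCA was present in 11.3% against 7.72% of all windows. It was more frequent in every other AhR class, from 14.5% with C/EBPα only to 31.25% with H3K27ac only. A match is a match of letters and not a site.

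Within bands of GC content the core was more frequent under neither-partner peaks than over all windows. The shares were 19.3% (12.4 to 28.8%) against 11.6% up to 50% GC, 47.2% (39.7 to 54.9%) against 33.8% from 50 to 60%, 62.1% (56.6 to 67.4%) against 52.8% from 60 to 70%, and 70.7% (65.1 to 75.8%) against 57.5% above 70%. The C/EBPα-only windows held it in 13.6%, 33.6%, 54.5% and 72.3% (60.4 to 81.7%) from the lowest band to the highest. The intervals of the 2 classes overlapped in every band. The reordered words, with matches overlapping the core kept, were also more frequent in most bands. From the lowest band up, GTGCG was present in 9.09%, 36.8%, 53.7% and 73.3% of neither-partner windows, against 8.12%, 27.1%, 48.0% and 62.4% of all. CGTGG was present in 27.3%, 41.7%, 56.0% and 54.8%, against 14.4%, 37.9%, 53.1% and 56.0%.

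**Figure D3:**
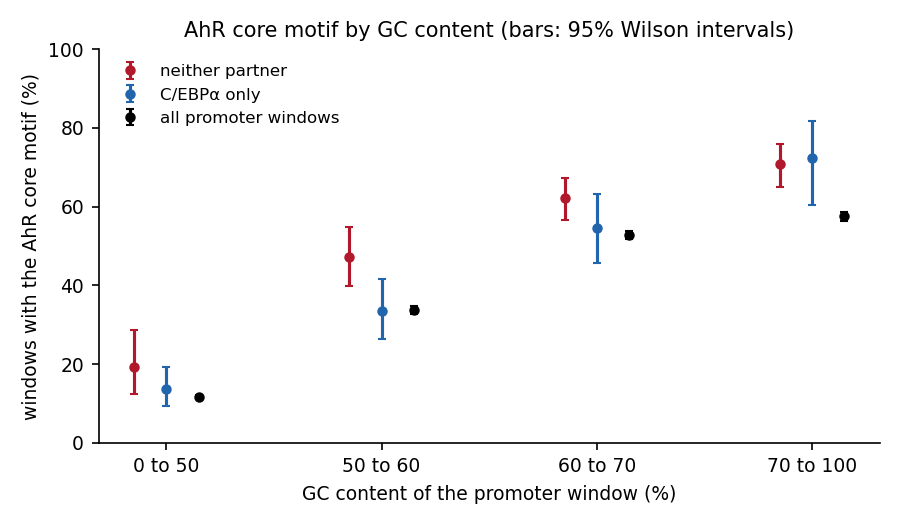
Share of promoter windows with the AhR core motif (vertical axis, %) in 4 bands of GC content (horizontal axis, %), for windows under neither-partner peaks, under C/EBPα-only peaks and for all windows, with 95% Wilson intervals. Neither-partner windows lie above all windows in every band, from 19.3% against 11.6% to 70.7% against 57.5%, and overlap the C/EBPα-only intervals.

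Position within the peak separated the core from the reordered words. Within 40 bp of the centre of neither-partner peaks there were 6.19 matches of GCGTG per kb of promoter, and 2.19 at 80 to 200 bp from it, a ratio of 2.82. All promoter windows read at the same offsets gave 1.10. The reordered words gave 1.27 (GTGCG, matches overlapping GCGTG left out) and 1.29 (CGTGG, such matches kept). Under C/EBPα-only peaks the core gave 1.86, and TTGCNNAA gave 2.65 there but 0.456 under neither-partner peaks, from 8 matches near the centre. The rule removed peaks that touch a C/EBPα peak, so it favours this contrast of the C/EBP word. In the central 100 bp, 38.4% (34.7 to 42.1%) of 662 neither-partner peaks held the core, against 17.2% of all windows over the last 100 bp before the start.

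**Figure D4:**
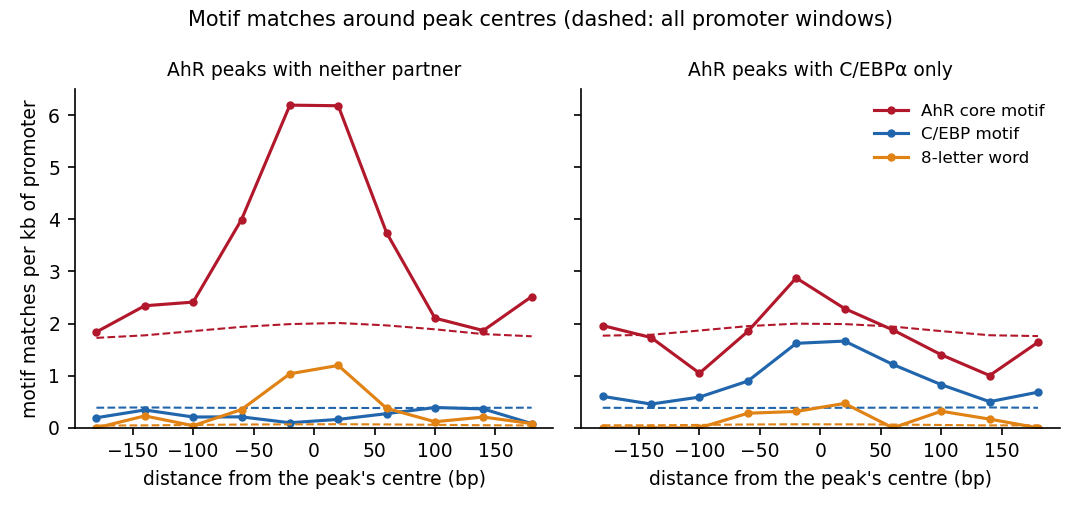
Matches per kb of promoter sequence (vertical axis) in bins of 40 bp by distance from the peak's centre (horizontal axis, bp), for the AhR core, the C/EBP word and the 8-letter word found from these data; dashed lines give all promoter windows at the same offsets. The AhR core peaks at 6.19 per kb at the centre of neither-partner peaks, and the C/EBP word at the centre of C/EBPα-only peaks.

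Peaks with merge number 1 held the core more often than merged ones. It was present in 60.0% (56.4 to 63.5%) of the 730 windows under neither-partner peaks with merge number 1 and in 39.0% (30.0 to 48.8%) of the 100 windows under those with 2 or more. The reordered words fell in the same way, GTGCG from 53.8% to 39.0% and CGTGG from 51.2% to 39.0%. Their matches overlapping the core were kept, so whether the difference was particular to the core cannot be told. GC content differed in the same direction, with medians of 65.7% and 61.8%, and its part in these differences was not tested.

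The word TCGCGAGA had the highest ratio to all promoters among words of 8 letters present in at least 15 neither-partner windows. It was present in 59 windows, 7.11% (5.55 to 9.06%), against 1.14% of all windows (6.24 times) and 1.94% of C/EBPα-only windows. As the word was chosen for this ratio, the ratio is a description. Matches again lay at the centre, with 1.12 per kb within 40 bp and 0.119 per kb at 80 to 200 bp, a ratio of 9.38 against 1.32 for all windows, where a full palindrome counts as 2 matches. They lay at the centre of C/EBPα-only peaks too, with 0.391 and 0.103 per kb, a ratio of 3.79 from 15 matches near the centre. By GC band it was present in 9.82% of neither-partner windows from 50 to 60% GC and 8.41% from 60 to 70%, against 1.36% and 2.07% of all windows. The promoter of BANP itself was among the 59, as were those of HUWE1, IREB2 and STAG1. The next word by ratio that did not overlap it, GCACGCAC, contains the AhR core on the other strand and was present in 59 windows (7.11% against 1.21%). Under C/EBPα-only peaks the leading words were CAAAGTCC (5.18 times), which resembles the half-sites of nuclear receptors such as HNF4A, and TGATGCAA, of C/EBP type.

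Of 19974 protein-coding genes, 5196 had at least 1 neither-partner peak assigned to them (nearest gene body, at most 50 kb), a background of 26%. Any AhR peak was assigned to 60.3% of them. Of the 15843 coding genes with a listed start, 1451 (9.16%) had a neither-partner peak within 1 kb of a start, and 965 (6.09%) a C/EBPα-only peak. A gene with a peak of each class counts in both, here and in the lists below. Genes with a neither-partner peak had a median length of 50825 bp, against 24170.5 bp over all coding genes, so counts by gene body favour long genes.

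Of the AhR targets and feedback genes 15 of 20 had a neither-partner peak by gene body, and 17 of 20 had an AhR peak of some class, both above the shares over all genes. At listed starts, 3 of 16 (18.8%) had a neither-partner peak and 4 of 16 a C/EBPα-only peak. CYP1A1 had 2 of its 5 AhR peaks in the class, both of merge number 2. The first, chr15:74725934-74726198, was centred 538 bp before the start, and the second, chr15:74723681-74723934, was centred 1721 bp after it. They lay 185 and 115 bp from a C/EBPα peak, so that both would leave the class if edges within 1 kb counted as shared, and both lay within 3 kb of the start, where the H3K27ac list is nearly empty. Another AhR peak of CYP1A1, with C/EBPα only, was centred 989 bp before its start. CYP1A2, the neighbouring hepatic enzyme, had 1 of 2, centred 2028 bp before its start and 11145 bp from the nearest C/EBPα peak. CYP1B1, which metabolises oestradiol, had 2 of 2, at 1454 and 20265 bp outside its gene body, both of merge number 1; its start is not listed.

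Among the feedback genes, TIPARP, an ADP-ribosyltransferase that represses AhR, had 3 of 8, centred 9100 bp before its start and 9191 and 26489 bp after it, the last of them 1405 bp from an H3K27ac region. AHRR, the AhR repressor, had 1 of 4 at 51251 bp inside the gene, 25889 bp from an H3K27ac region and 102282 bp from a C/EBPα peak, while its start carried an AhR peak with H3K27ac only. NQO1 had 1 of 2, centred 12 bp after its start, with merge number 1. SLC7A5, an amino acid transporter, had 1 of 14, and VEGFA 2 of 10. AHR itself had none of 1, and ARNT none of 3, each of which lay with C/EBPα or with both partners. CEBPA had none of 8.

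Of the 9 genes for riboflavin uptake and conversion, 2 (22.2%, near the background) had a neither-partner peak by gene body: NT5E, a nucleotidase of the cell surface, with 2 of 6 and ENPP1 with 1 of 13. RFK had the peak at its start shown above, chr9:76394447-76394703, which lies in the body of the overlapping neighbour GCNT1 and is counted there. At listed starts the list had 2 of 5 genes, RFK and NT5E, and 1 of 5, again RFK, with a C/EBPα-only peak. The neither-partner peak at RFK lay 268 bp from a C/EBPα peak. FLAD1, which makes FAD from FMN, was the nearest gene body of no AhR peak. Of 25 mitochondrial flavoenzymes 10 (40%) had a neither-partner peak by gene body, against 26% over all genes. An AhR peak of some class was assigned to 22 of 25, against 60.3%. At listed starts 3 of 22 (13.6%) had a neither-partner peak, close to the 9.16% over all genes, and 3 of 22 a C/EBPα-only peak. AIFM1 and ACADVL each had their only AhR peak, a neither-partner peak, at the start.

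The lists of stress and metabolism also lay above the background by gene body, and they lay above the 60.3% for any AhR peak as well: 19 of 20 NRF2 genes, 18 of 20 clock genes, 19 of 21 hypoxia genes, 26 of 26 genes of fatty acid oxidation and 18 of 23 of the integrated stress response. Their listed starts with a C/EBPα-only peak were 3 of 14, 4 of 19, 2 of 19, 4 of 20 and 4 of 19 in that order, also above the 6.09% over all genes. The NRF2 response had 14 of 20 genes, among them ABCC2 (4 of 10 AhR peaks), HMOX1 (2 of 6) and MAFG (2 of 2). At listed starts it had 5 of 14 (35.7%): NQO1, GCLM, SRXN1, ABCC2 and MAFG. The circadian clock had 13 of 20 genes and 7 of 19 listed starts (36.8%), which were those of NPAS2, PER2, CRY1, CRY2, NR1D1, DBP and TEF. The hypoxia response had 13 of 21 and 5 of 19 starts, among them ENO1, ALDOA and EGLN1. Fatty acid oxidation had 13 of 26 genes and 6 of 20 starts: CPT1A, CPT2, ACADVL, ETFB, ECI1 and PLIN2. The integrated stress response had 8 of 23 genes and 4 of 19 starts (ATF5, CEBPB, PPP1R15A and SLC7A5).

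Liver gene lists were set beside the shares over all genes. These were 26% by gene body, 9.16% at listed starts and 6.09% there with C/EBPα only. Hepatocyte identity genes had 17 of 29 (58.6%) by gene body, among them TF (4 of 20), HNF4A (4 of 15) and ALB (2 of 24), and all 29 had an AhR peak of some class. At starts they had 4 of 21 (19.0%: AHSG, CEBPB, FGB and SERPINA1), while C/EBPα-only peaks lay at 11 of 21 (52.4%), AHSG and SERPINA1 among them. Lipogenesis had 7 of 19 genes (36.8%), led by MLXIPL (3 of 14). At starts it had 1 of 15 (6.67%: SCD), against 6 of 15 (40%) with C/EBPα only, SCD among them. Gluconeogenesis had 5 of 15 genes (33.3%), led by PPARGC1A (4 of 25), and 3 of 11 starts (27.3%) in each class, PC and PPARGC1A in both. An AhR peak of some class was assigned to 18 of 19 lipogenesis and 14 of 15 gluconeogenesis genes. Of the neither-partner shares, only that of lipogenesis at starts lay below the share over all genes. The AhR complex had 3 of 9 genes (33.3%), near the background, and 6 of 9 had an AhR peak of some class. At starts it had 1 of 6, PTGES3.

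By gene body, most lists of housekeeping genes lay below the background, the proteasome and the replication and repair genes close to it. Cytosolic ribosomal proteins had 8 of 48 genes, the spliceosome 2 of 26 (SNRPC and SNRPE), proteasome subunits 7 of 30, DNA replication and repair 6 of 28 and the KRAB zinc finger genes 4 of 40. RNA polymerase II and general factors, with 10 of 26, lay above it. AhR peaks of any class were assigned to 21 of 48, 13 of 26, 15 of 30, 20 of 28, 20 of 40 and 16 of 26, in that order. Replication and repair lay above the 60.3% over all genes, RNA polymerase II close to it and the others below it. Median gene lengths were 5046, 15291.5, 16233.5, 37213, 27225.5 and 19296.5 bp, against 24170.5 bp over all coding genes, so not every low list was one of short genes. At listed starts the counts were small. Proteasome subunits had 3 of 25 (12%: PSMA3, PSMA4 and PSMA5), RNA polymerase II genes 3 of 21 (14.3%: POLR2A, POLR2H and POLR2L) and DNA replication and repair 3 of 22 (13.6%: BRCA1, POLE and RFC3). With 3 genes each, these lay close to the 9.16% over all genes. Ribosomal proteins had 2 of 37 (RPS12 and RPS19), the spliceosome 1 of 22 and the KRAB zinc finger genes 1 of 37. These lay below 9.16%, also on few genes.

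Markers of other liver cells and of neurons were set beside those of hepatocytes. Macrophage and leukocyte markers had 5 of 16 genes (31.3%), endothelial markers 4 of 13 (30.8%) and stellate cell and fibroblast markers 6 of 16 (37.5%). Cholangiocyte markers had 4 of 10 (40%) and neuronal genes 8 of 20 (40%). The macrophage and endothelial lists lay near the 26% background. The other lists lay above it on few genes each, as lists of stress and metabolism also did. Any AhR peak was assigned to 11 of 16, 8 of 13, 10 of 16, 8 of 10 and 18 of 20. The endothelial and stellate cell lists were close to the 60.3% over all genes, and the others above it. At starts these lists had a neither-partner peak in 1 of 12, 0 of 7, 1 of 9, 0 of 4 and 0 of 14. The neuronal genes had a median length of 582127 bp, and the peak counted for SYN1 was the one at the start of TIMP1, a gene inside it. No expression was measured, so a peak beside a marker says nothing of its transcription. The lists were described by counts beside the background, and no list was tested.

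**Figure D5:**
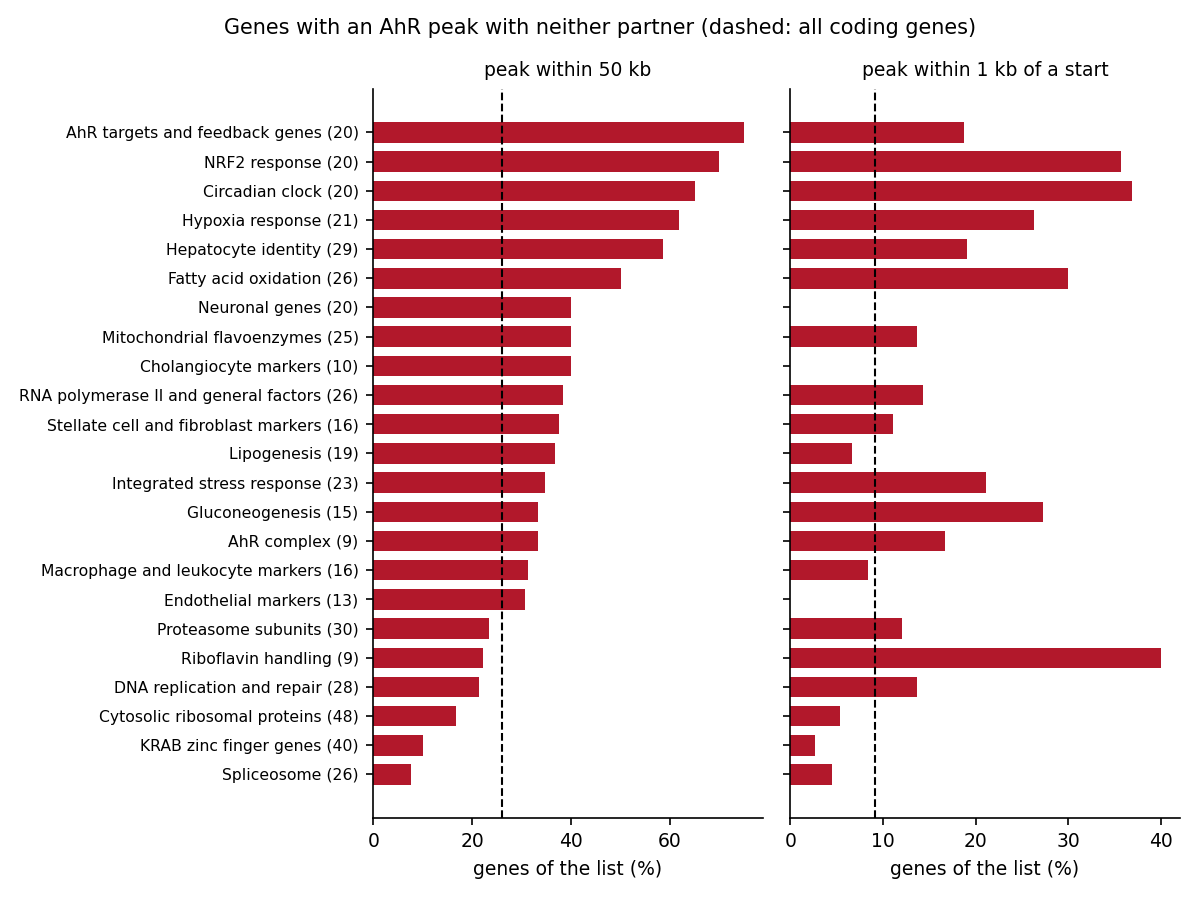
Share of the genes of each list (horizontal axes, %) with a neither-partner peak assigned within 50 kb (left) and, of its genes with a listed start, within 1 kb of that start (right); the number of genes stands beside each name and the dashed lines give all coding genes, 26% and 9.16%. The AhR target, NRF2 and clock lists stand highest on the left with 15, 14 and 13 of 20 genes, and the spliceosome lowest with 2 of 26.

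The genes with the most neither-partner peaks were long ones. PDE4D, a cAMP phosphodiesterase gene of 1553091 bp, had 12 of its 52 AhR peaks in the class. ZBTB20, a repressor expressed in liver, had 8 of 30. KLRG1, LPP, MAGI2, MED13L, RAD51B and ZNRF3 had 7 each, of 15 to 54 AhR peaks. The 25 genes with 6 or more had a median length of 496835 bp. IGF2, the fetal growth factor, was the shortest of them at 20450 bp, with 6 of 10.

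Some of the peaks stood in runs, with centres at most 10 kb from the next. There were 731 runs of 2 or more, holding 1671 peaks (19.5%), against 23.5% of C/EBPα-only, 31.7% of H3K27ac-only and 45.6% of both-partner peaks. Runs were counted within each class, so a class with more peaks has more of them in runs by its size alone, and these shares cannot be compared between classes of unequal size. Of these runs 41 held 4 or more. The longest, with 7 peaks all of merge number 1, spanned chr9:137218890-137230943 at RNF208, RNF224, CYSRT1 and SLC34A3. The 6 peaks inside IGF2 stood within 3766 bp at chr11:2133910-2137676, all of merge number 1, between 3575 and 6548 bp from the nearest H3K27ac region. The 4 other AhR peaks assigned to IGF2, between chr11:2097441-2097702 and chr11:2128502-2128991, overlapped H3K27ac regions. No start of IGF2 is listed, so the place of these peaks relative to the gap at starts could not be read. Runs of 6 also stood at EFNA1 and SLC50A1, at SDC4 and SYS1, at CCDC183 and TMEM141 and at C8G and LCN12, and a run of 5, of which 3 were merged, stood in AXIN2, a feedback inhibitor of WNT signalling. IKBKG, the regulatory subunit of the IκB kinase, had 4 peaks within 1 kb of its listed starts, and INSR, AXL, IRF2BP2 and ANG were among 14 genes with 3.

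The 5354 distal peaks lay outside the gap of the H3K27ac list, as far as coding starts are listed. Another AhR peak lay within 10 kb of 49.2% (47.9 to 50.6%) of them, against 53.2% of distal C/EBPα-only, 61.1% of H3K27ac-only and 66.7% of both-partner peaks. A C/EBPα peak lay within 10 kb of 50.2%, against 60.6% of distal H3K27ac-only peaks. An H3K27ac region lay within 10 kb of 56.1%, against 58.0% of distal C/EBPα-only peaks. Many distal neither-partner peaks thus stood beside partner sites they did not touch, but no more often than those classes. In the H3K27ac list of the inhibitor experiment, 221 of them (4.13%, 3.63 to 4.69%) overlapped a region, against 4 of the 2621 near starts. Distal AhR peaks with H3K27ac in the first list overlapped a region of the second in 90.0%, and those with both partners in 93.8%. Over all places 226 neither-partner peaks overlapped the second list, and their median distance to the first was 11045.5 bp. As both lists join libraries of different treatments, the overlap is no test of the inhibitor.

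Small RNA genes were rarely near. Within 200 bp of a tRNA gene lay 30 neither-partner peaks (0.350%, 0.245 to 0.499%), against 22 (0.273%) with C/EBPα only, 51 (0.304%) with H3K27ac only and 31 (0.133%) with both. Within 200 bp of a miRNA gene lay 25 (0.292%), against 27 (0.335%) with C/EBPα only and 1 in each class with H3K27ac. Those miRNA genes included MIR148A, an abundant liver miRNA, and MIR484.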

How the data were processed

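The series holds 54 libraries, 30 of them from HepG2, grouped by their titles. The authors deposited peak lists that give a name, chromosome, start, end and strand per peak, in positions (hg38) and in no other unit. Bowtie2 and HOMER were used, per the submitters' processing notes, which give no version. For settings, filters and the merging of replicates the sources used here give nothing. No list holds counts, so the planned test between B2-minus and Cont libraries could not be run, the depth of every library is unknown, and no p-value is given. Wilson intervals (95%) cover counting error over peaks only, and neighbouring peaks are not independent.

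Peaks sharing at least 1 bp were taken to overlap. Widths are end minus start. Gene bodies, starts and promoter windows came from RefSeq tables of GRCh38.p14, matched by symbol, with starts for 15843 of 19974 coding genes. All 495 distinct symbols in the 23 gene lists were found. Windows with the same coordinates were counted once. Motif letters were searched on both strands. Distances to gene starts, gene bodies and neighbours within 10 kb run from the peak's centre. Distances to partner peaks and to small RNA genes run from edge to edge. Always named were AHR, ARNT, AHRR, CYP1A1, CYP1A2, CYP1B1, TIPARP, NQO1, CEBPA, RFK and FLAD1. In addition came the genes with the most peaks, the highest merge numbers, the widest peaks, the largest runs and up to 4 genes per list with the most peaks. Other genes, including most of those listed at starts, were named after their values were seen. The group and the gene lists were chosen with earlier results of these data known. The overlap, distance and motif routines were tested on simulated data, and all 20000 of 20000 simulated cases came out right. Alternatives were other overlap rules, distances, chromosome sets and merge numbers. The 2 mouse lists were not used here. The software was Matplotlib 3.10.9, SciPy 1.17.1, pandas 2.3.3 and NumPy 2.4.6 under Python 3.11.15.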

Additional observations from a re-analysis of the deposited data

How the results depend on the processing

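Of 30 alternatives, 20 stayed within 1.5 times a count or within the interval of a share, or, for GC content, within the quartiles. The number of neither-partner peaks was 8987 when 50% of the shorter peak had to be shared, 7942 with centres within 500 bp, 6707 with edges within 1 kb, 10012 with the inhibitor list, 8348 with both H3K27ac lists and 12852 when partners needed a merge number of 2 or more. Only 1142 remained when the AhR peak itself needed one. The share within 1 kb of a start, 17.9%, became 12.5% at 500 bp, 32.0% at 3 kb, 20.7% with lncRNA starts added, 19.3% in merged peaks and, chosen after seeing the data, 19.4% for either end of a gene body. The merged share became 10.2% in distal peaks, also chosen after seeing the data. The share inside a gene became 67.8% over all RefSeq genes. Of the list genes, 175 had a peak and 32 had a merged one. The core was present in 38.4% of central stretches of 100 bp. Other distances, gene sets and window lengths change these values by construction, and for merged and distal peaks the cause was not tested. No paired analysis was possible because the lists hold no value per library, and leaving out a replicate was not possible for the same reason. The sequence of distal peaks was not analysed here.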
